A study of Mus musculus with 3 samples.

Results

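The genes described here are the mouse Hox genes, taken as every gene symbol of the deposited feature list made of Hox, a cluster letter from a to d and a number. The rule found 39 symbols on 40 of the 31053 features, since Hoxd4 is listed under 2 gene identifiers that are counted apart. HoxA gave 11 symbols on chromosome 6, HoxB 10 on chromosome 11, HoxC 9 on chromosome 15 and HoxD 9 on chromosome 2. Hoxd12 and Hoxa13 had no count in any cell that passed the filters, and another 6 features had 1 to 9 counts over all such cells.

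Hox genes encode homeodomain transcription factors that give cells along the head-to-tail and limb axes their positional identity. They lie in 4 chromosomal clusters, and their order within a cluster follows their domain of expression, with low-numbered genes active further towards the head and high-numbered genes further towards the tail and the limb ends. Skin fibroblasts are known to keep a Hox pattern that records the body site they came from, and hair follicle keratinocytes use Hoxc13, a regulator of hair keratin genes.

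The study profiled single cells of dorsal skin from 3 libraries, 1 per group, by droplet capture of transcript 3' ends. The young control library came from mice of 2.5 months with the genotype Yap1 fl/fl; Wwtr1 fl/fl, given tamoxifen at 0.11 mg/g by gavage on 2 days a week for 4 weeks. The knockout library came from mice of the same age, floxed alleles and tamoxifen course that also carried R26-CAG-CreER, a tamoxifen-dependent Cre driven by a ubiquitous promoter, so its target was every cell type and not one lineage. The old control library came from untreated wild-type mice of 24 months. Old and young control skin therefore differed in age, genotype and tamoxifen together, and these cannot be told apart. With 1 library per group no test across animals was possible: intervals below are exact 95% intervals that cover counting error only, and the spread between animals is unknown.

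The libraries held 95274423, 57767761 and 52579262 unique molecular identifiers (UMIs, 1 per captured transcript molecule) in the order young control, knockout and old control, and 10784, 8655 and 11108 cells were kept. Values in groups of 3 follow that order throughout. The young control shared 127 barcode sequences with the knockout and 137 with the old control, and these shared 198 with each other. Cells were clustered without the Hox genes, and clusters were called by the cell type whose markers they held (X-like). Of 41 clusters, 31 took a name, and the cells left unnamed made up 11.2%, 40.9% and 39.6% of the libraries. The fibroblast-like class held 2368, 144 and 305 cells, the dermal papilla or sheath-like class 196, 120 and 1270, the keratinocyte-like class 2836, 130 and 1954, and the vascular endothelial-like class 634, 1471 and 352.

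The targeted genes were read first. Wwtr1, which encodes TAZ, stood at 125, 22.3 and 114 CPM (the UMIs of a gene scaled to a common total over the class) in fibroblast-like cells and at 114, 0.760 and 107 CPM in keratinocyte-like cells. Yap1 was lower in the knockout library in keratinocyte-like cells, at 109, 20.5 and 76.6 CPM, but was at 58.6, 49.6 and 51.3 CPM in fibroblast-like cells. A 3' count outside a deleted stretch does not measure the deletion, and whether the Yap1 counts lie outside it was not tested. The knockout library also differed in sex-linked RNA: Xist gave 0 or 1 UMI in each of the 4 classes there against 756 to 2202 CPM in the young control, and Ddx3y, a Y-linked gene, stood at 75.6 to 191 CPM there with 0 UMIs in these classes of both controls. Genotype and sex therefore cannot be told apart in the comparison of knockout with young control.

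Stretches before a RefSeq transcription start of 5 Hox genes are shown because these genes carry the contrasts between cell types described below. Each is the 250 bases before the RefSeq transcription start in GRCm38.p6, read 5' to 3' on the gene's own strand. RefSeq promoter entries were found for 22 of the 39 symbols. Hoxa7 lies on the minus strand (chr6:52218574-52218823), as does Hoxa9 (chr6:52227371-52227620). Hoxb8 (chr11:96281655-96281904), Hoxc4 (chr15:103034145-103034394) and Hoxd8 (chr2:74704365-74704614) lie on the plus strand. In the GENCODE M21 annotation the stretches of Hoxa7, Hoxa9 and Hoxc4 lie inside the span of the gene and not before it. Those of Hoxb8 and Hoxd8 end directly before the span of the gene. Capitals mark matches, on either strand, to one of 5 searched motifs: TGATNNAT (Hox with Pbx), TAATTA (homeodomain core), CCAAT (the CCAAT box), GGAATG (bound by TEAD factors, the DNA-binding partners of YAP and TAZ) and TATAAA (the TATA box).
Hoxa7: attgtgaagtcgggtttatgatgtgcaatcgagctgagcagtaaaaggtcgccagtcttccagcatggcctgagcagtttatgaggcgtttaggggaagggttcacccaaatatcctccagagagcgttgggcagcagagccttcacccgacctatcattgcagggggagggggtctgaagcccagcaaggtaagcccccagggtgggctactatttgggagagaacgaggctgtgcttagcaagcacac
Hoxa9: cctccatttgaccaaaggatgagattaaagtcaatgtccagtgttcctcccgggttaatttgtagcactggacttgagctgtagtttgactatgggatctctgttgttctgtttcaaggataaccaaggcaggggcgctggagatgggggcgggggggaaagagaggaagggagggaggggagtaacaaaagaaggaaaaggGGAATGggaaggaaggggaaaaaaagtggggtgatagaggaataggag
Hoxb8: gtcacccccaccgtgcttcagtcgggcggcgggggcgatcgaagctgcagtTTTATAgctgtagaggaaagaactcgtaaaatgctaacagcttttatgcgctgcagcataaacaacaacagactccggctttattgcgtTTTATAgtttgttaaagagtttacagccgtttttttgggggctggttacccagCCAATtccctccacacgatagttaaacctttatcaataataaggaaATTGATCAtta
Hoxc4: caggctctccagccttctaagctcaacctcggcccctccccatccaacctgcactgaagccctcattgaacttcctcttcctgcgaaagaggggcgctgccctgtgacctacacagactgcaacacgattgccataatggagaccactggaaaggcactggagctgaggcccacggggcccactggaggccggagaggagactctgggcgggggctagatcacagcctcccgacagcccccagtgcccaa
Hoxd8: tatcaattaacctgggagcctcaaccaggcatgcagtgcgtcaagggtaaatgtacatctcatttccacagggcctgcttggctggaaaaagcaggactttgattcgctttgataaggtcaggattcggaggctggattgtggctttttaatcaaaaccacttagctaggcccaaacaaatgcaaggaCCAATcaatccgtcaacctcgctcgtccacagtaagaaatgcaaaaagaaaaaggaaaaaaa

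Hoxb8 held the Hox with Pbx motif, the CCAAT box and the TATA box, the last at 2 places, and none of these overlapped. Hoxa9 held the TEAD motif and Hoxd8 the CCAAT box, while Hoxa7 and Hoxc4 held none of the 5 motifs in this window. Over the 24 promoter entries of Hox genes, the TEAD motif was found in 1, the Hox with Pbx motif in 4, the homeodomain core in 2, the CCAAT box in 14 and the TATA box in 4. Among 32851 promoters of the same kind these motifs were present in 12.6%, 7.68%, 4.84%, 33.8% and 12.4%. A match of letters is a description of the sequence and says nothing of binding, and the 5 genes shown were chosen with their levels and matches known.

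Hox RNA was several times more abundant in fibroblast-like, dermal papilla or sheath-like, keratinocyte-like and vascular endothelial-like cells than in lymphoid cells. All Hox features together came to 391 (380 to 401), 554 (509 to 603) and 545 (513 to 579) CPM in fibroblast-like cells, against 72.2, 32.9 and 39.2 CPM in the T, NK and innate lymphoid-like cells (lymphoid-like below) of the same libraries. Dermal papilla or sheath-like cells, the mesenchyme that instructs the hair follicle, held 639, 761 and 545 CPM. Keratinocyte-like cells held 369, 362 and 328 CPM and vascular endothelial-like cells 654, 435 and 651 CPM. A fibroblast-like cell had any Hox UMI in 82.7%, 89.6% and 91.1% of cases, and a lymphoid-like cell in 18.3%, 11.8% and 9.46%, at median depths of 5821, 6432 and 6383 UMIs against 2888, 4086.5 and 4138.5.

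**Figure D1:**
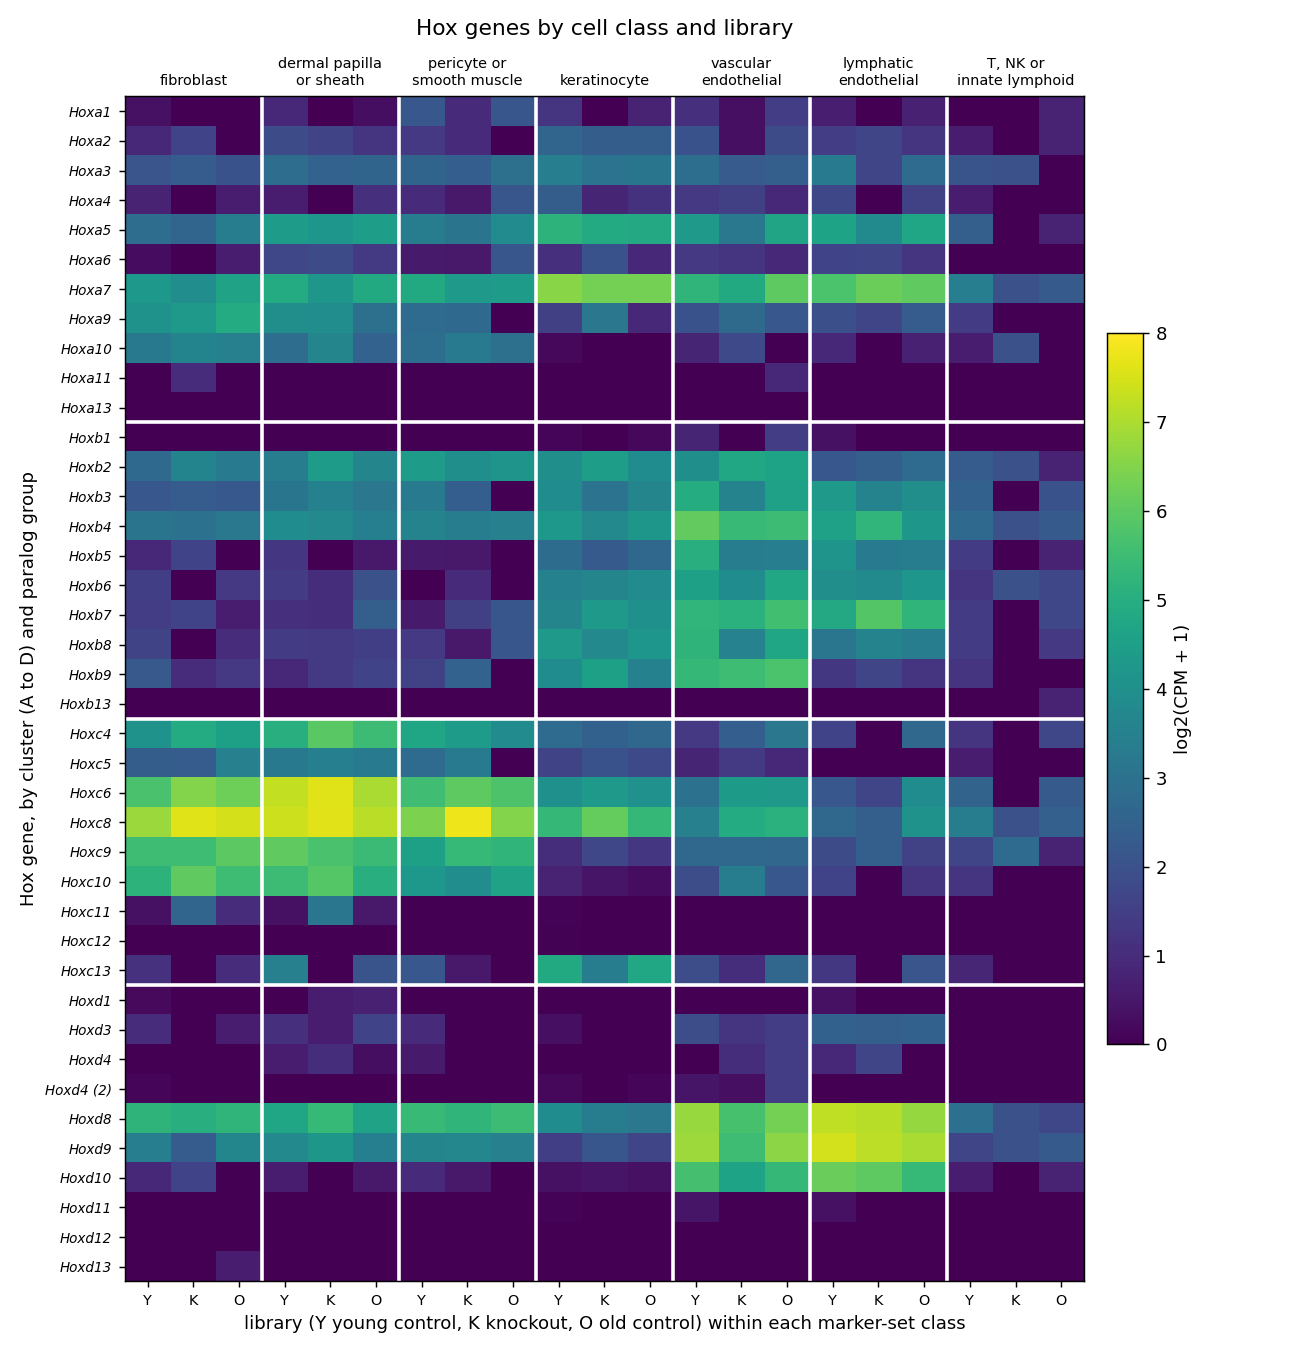
Level of each of the 40 Hox features (rows, by chromosomal cluster) in 7 cell classes of the 3 libraries (columns), as log2(CPM + 1) on a colour scale from 0 to 8. Fibroblast-like and dermal papilla or sheath-like columns are strongest at Hoxc8 and Hoxc6, and keratinocyte-like columns at Hoxa7. Lymphatic endothelial-like columns are strongest at Hoxd9 and Hoxd8. Vascular endothelial-like columns are led by Hoxd9 in both controls and by Hoxd8 in the knockout, with HoxB genes also among their highest.

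Each class was then set against the lymphoid-like cells of the same library, counting a Hox gene as above them when the intervals of the 2 levels did not overlap. How much of the lymphoid-like Hox RNA came from loose RNA in the droplets was not tested. In fibroblast-like cells 11, 7 and 12 of the 39 members did so. Among features with a mean of at least 5 CPM, 26.9%, 15.0% and 22.1% of all features passed, and of the Hox members at that level 9 of 11, 7 of 11 and 10 of 12. In dermal papilla or sheath-like cells the shares of all features were 29.9%, 19.7% and 28.3%, and Hox members passed in 12 of 14, 7 of 14 and 9 of 12 cases. In keratinocyte-like cells the shares were 29.5%, 15.2% and 23.7%, with 14 of 14, 6 of 12 and 13 of 13 Hox members. In vascular endothelial-like cells they were 23.5%, 16.9% and 21.6%, with 13 of 15, 10 of 14 and 15 of 16 Hox members. The knockout library had 76 lymphoid-like cells, which widened the intervals of its lymphoid-like levels. The highest Hox level in lymphoid-like cells was 9.77, 5.98 and 4.52 CPM. Hox members thus reached the minimum mean mainly through the other class, which largely fixed their counts in advance. The shares of all features also include features high in lymphoid-like cells, which could not pass as higher. The Hox counts are therefore descriptions, and nothing is read from setting them beside those shares.

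The chromosomal clusters were used in different proportions by mesenchyme, epithelium and endothelium. HoxC genes supplied 67.1%, 77.9% and 72.3% of all Hox UMIs in fibroblast-like cells and 74.9%, 76.5% and 73.0% in dermal papilla or sheath-like cells. In keratinocyte-like cells HoxA led, with 41.6%, 36.4% and 37.2%, followed by HoxB with 29.1%, 30.5% and 32.1% and HoxC with 24.9%, 29.4% and 27.5%. In vascular endothelial-like cells HoxC supplied 4.61%, 16.2% and 11.5%, HoxB 42.5%, 44.0% and 38.9%, and HoxD 41.7%, 27.8% and 33.7%. Lymphatic endothelial-like cells took 64.2%, 58.8% and 51.2% from HoxD. The UMIs are 3' end counts that were not divided by transcript length, and how well each Hox transcript was captured is unknown, so these shares compare cell types more safely than genes.

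**Figure D2:**
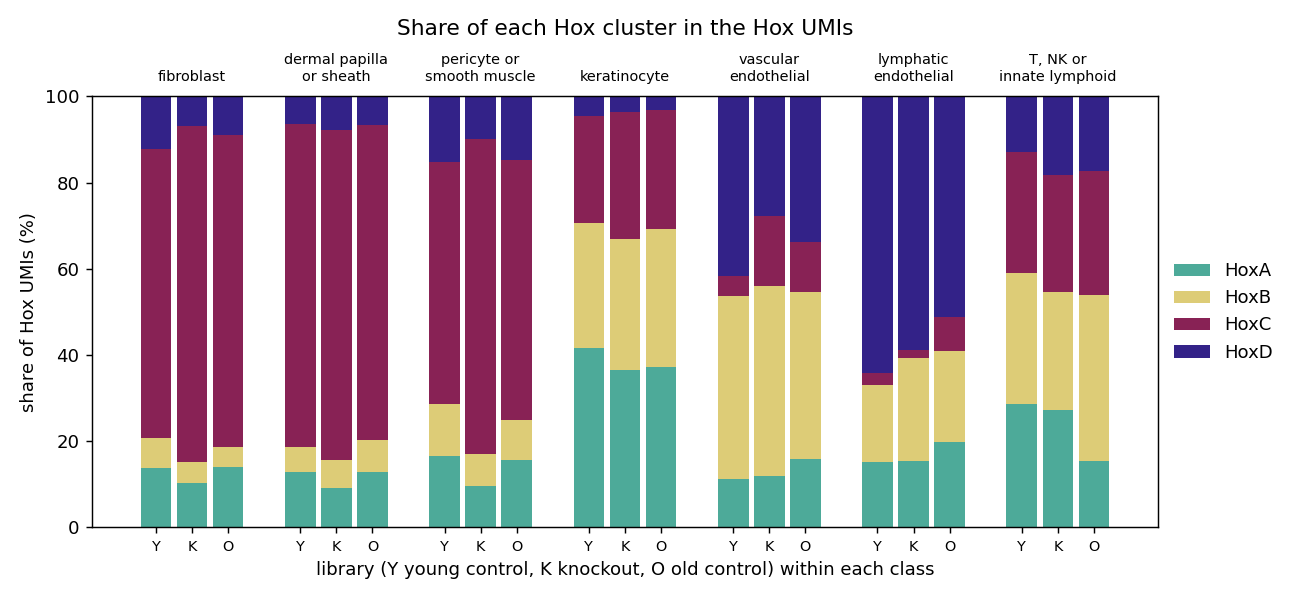
Percent of all Hox UMIs that came from HoxA, HoxB, HoxC and HoxD (stacked bars, each summing to the whole) in 7 cell classes, with 1 bar per library (Y, young control; K, knockout; O, old control). HoxC fills most of the fibroblast-like and dermal papilla or sheath-like bars, between 67.1% and 77.9%. It fills between 4.61% and 16.2% of the vascular endothelial-like bars.

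Neighbouring genes carried these proportions. The 6 genes from Hoxc10 to Hoxc4 lie within 70057 bases (chr15:102966796-103036852) and gave 66.7%, 77.0% and 72.0% of Hox UMIs in fibroblast-like cells, but 4.20%, 16.0% and 10.7% in vascular endothelial-like cells. The 3 genes from Hoxd10 to Hoxd8 lie within 16010 bases (chr2:74691924-74707933) and gave 11.8%, 6.93% and 8.84% in fibroblast-like cells against 41.1%, 27.2% and 32.9% in vascular endothelial-like cells. The 8 genes from Hoxb9 to Hoxb2 (chr11:96271457-96354012) gave 6.89%, 4.93% and 4.61% in fibroblast-like cells against 29.1%, 30.5% and 32.0% in keratinocyte-like cells. These stretches were picked after the levels were seen. By position number, genes of groups 4 to 8 gave 65.5%, 68.4% and 67.4% of fibroblast-like Hox UMIs, groups 9 and 10 gave 30.3%, 26.6% and 29.3%, and groups 11 to 13, which mark the tail end and the limb tips, gave 0.374%, 1.09% and 0.470%.

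Cell types were then compared gene by gene within each library, counting a gene when its intervals in both classes did not overlap in the same direction in all 3 libraries. Between fibroblast-like and keratinocyte-like cells 36.4% of all features passed in one direction or the other, and of 19 Hox members at the minimum level 6 were higher and 7 lower in fibroblast-like cells. Hoxc10, Hoxc9, Hoxc8, Hoxc6, Hoxc4 and Hoxd8 were the higher ones in fibroblast-like cells. Without the minimum level Hoxa10 joined them, and the count was 7 higher and 7 lower. Hoxa5, Hoxa7, Hoxb6, Hoxb7, Hoxb8, Hoxb9 and Hoxc13 were lower in fibroblast-like than in keratinocyte-like cells.

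Between fibroblast-like and vascular endothelial-like cells 21.7% of all features passed, and of 20 Hox members 7 were higher and 8 lower in fibroblast-like cells. The higher genes were Hoxa9, Hoxa10, Hoxc10, Hoxc9, Hoxc8, Hoxc6 and Hoxc4, and the lower genes were Hoxd10, Hoxd9, Hoxb9, Hoxb8, Hoxb7, Hoxb6, Hoxb4 and Hoxb2. Between keratinocyte-like and vascular endothelial-like cells 31.9% of all features passed, and of 17 Hox members Hoxc13 was higher in keratinocyte-like cells and 6 (Hoxd10, Hoxd9, Hoxd8, Hoxb9, Hoxb7 and Hoxb4) were lower. Between fibroblast-like and dermal papilla or sheath-like cells 22.6% of all features passed, and of 15 Hox members 0 were higher and 3 (Hoxa5, Hoxc6 and Hoxc4) lower in fibroblast-like cells. The Pearson correlation of log2(CPM + 1) over the 40 features ran from 0.944 to 0.953 between the latter classes within a library, from 0.484 to 0.562 between fibroblast-like and keratinocyte-like cells, and from 0.483 to 0.582 between fibroblast-like and vascular endothelial-like cells. The points share library and depth, and these correlations are descriptions.

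In fibroblast-like cells the highest Hox level was that of Hoxc8, a gene of trunk identity, followed by other mid-cluster HoxC genes, and several of these were higher in the knockout and old control libraries than in the young control. Hoxc8 stood at 110 (104 to 115), 192 (166 to 222) and 179 (161 to 199) CPM, so that the interval of the young control did not overlap the other 2. Its ratio to the young control was 1.75 (1.5 to 2.04) for the knockout, and for the old control it was 1.63 (1.45 to 1.83). Hoxc6 stood at 51.1, 91.1 and 73.8 CPM, with ratios of 1.78 (1.42 to 2.22) and 1.45 (1.20 to 1.73). The young control library was the lowest of the 3 for both genes.

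Hoxc10, which marks lumbar levels and the hind trunk, stood at 35.1, 65.8 and 44.6 CPM, with ratios of 1.88 (1.43 to 2.43) and 1.27 (1.001 to 1.60). Hoxc4 stood at 16.0, 29.3 and 22.6 CPM, with ratios of 1.83 (1.20 to 2.71) and 1.41 (0.997 to 1.95). Hoxc9 stood at 44.6, 44.5 and 62.0 CPM and Hoxa9 at 16.0, 19.2 and 29.2 CPM, so these genes were higher in the old control, by 1.39 (1.14 to 1.69) and 1.83 (1.34 to 2.45), while their knockout intervals included 1. Hoxc5 stood at 4.17, 4.05 and 10.3 CPM and its old control ratio was 2.46 (1.40 to 4.13). The assignment of reads was limited by overlapping annotation for some of these genes: 9 Hox features (Hoxa2, Hoxa3, Hoxa9, Hoxc5, Hoxc10, Hoxd3, Hoxd4, Hoxd10 and Hoxd11) share exon bases with another gene on the same strand, and 10 with a gene on the opposite strand.

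For the HoxD, HoxA and HoxB genes given next the counts did not separate the libraries. Hoxd8 stood at 35.6, 32.4 and 36.4 CPM, with ratios of 0.909 (0.615 to 1.30) and 1.02 (0.786 to 1.31). Hoxa7 stood at 18.1, 14.2 and 23.6 CPM, Hoxd9 at 9.74, 4.05 and 11.8 CPM, Hoxa10 at 8.35, 11.1 and 10.3 CPM and Hoxb2 at 5.70, 11.1 and 8.72 CPM. The intervals of all 8 ratios of these 4 genes included 1, which does not show that the levels were alike.

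These differences were small against the size rule used over all features, which called a feature when its mean was 5 CPM or more, its ratio was 2 or more (or 0.5 or less) and the near bound of its interval lay past 1.5-fold. In fibroblast-like cells 7.72% of all features passed it for knockout over young control and 4.56% for old over young control, and 0 of 13 and 0 of 14 Hox features did. An interval that excluded 1 was common: 35.6% of all features had one for the knockout against 4 of 13 Hox features, and 36.8% for the old control against 6 of 14. The Hox shares were thus near those of all features, and all 4 and all 6 were higher than the young control. Over all features the higher ones were also the more frequent, with 2253 higher against 1318 lower in the knockout and 2159 against 1577 in the old control. The median log2 ratio of the Hox features tested was 0.30 (knockout) and 0.50 (old control), against 0.13 and 0.07 over all features tested. Both comparisons share the young control library, so a low count there would lift both.

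**Figure D3:**
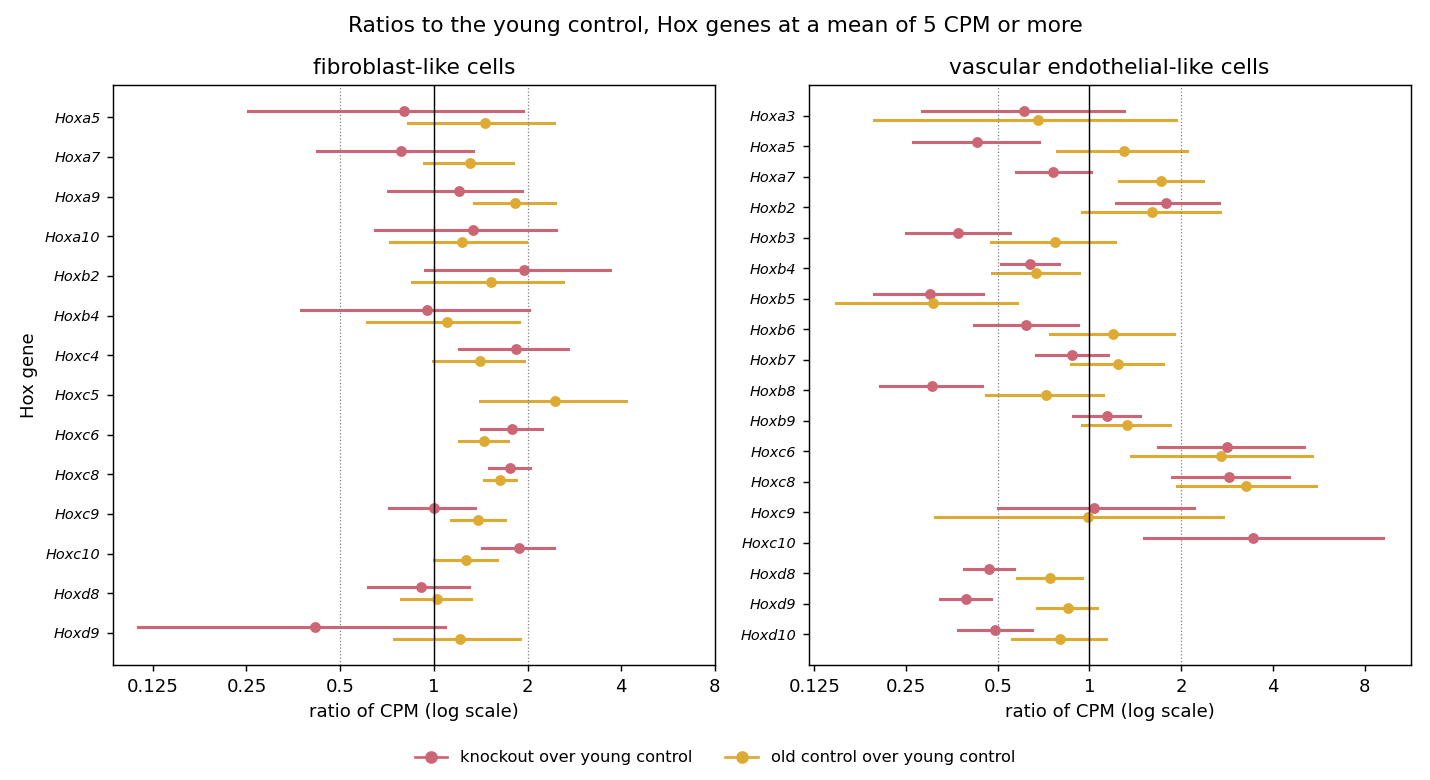
Ratio of CPM to the young control (log axis) for Hox genes in fibroblast-like cells (one panel) and vascular endothelial-like cells (the other), for the knockout and the old control, with exact 95% counting intervals as bars. Dotted lines mark ratios of 0.5 and 2. In fibroblast-like cells Hoxc8 lies at 1.75 and 1.63, and in vascular endothelial-like cells Hoxd9 lies at 0.393 and 0.849.

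The fibroblast-like class was mixed differently in each library. In the joint clustering it consisted of a reticular-like cluster of 960, 50 and 151 cells, a Coch and elastin-like cluster of 475, 76 and 108 cells, and a Gpx3 and C3 high-like cluster of 933, 18 and 46 cells, whose 18 knockout cells were too few for values of their own. Within the reticular-like cluster Hoxc8 stood at 122, 212 and 178 CPM, with ratios of 1.74 (1.34 to 2.22) and 1.46 (1.23 to 1.73). Within the Coch and elastin-like cluster it stood at 125, 189 and 187 CPM, with ratios of 1.51 (1.19 to 1.90) and 1.49 (1.20 to 1.84). Hoxc8 was higher than in the young control inside both the reticular-like and the Coch and elastin-like cluster. Its level in the Gpx3 and C3 high-like cluster is not given here. The part of the cluster mix in the class ratios of Hoxc8 was not tested.

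Other genes depended on the cluster. Hoxd8 in the Coch and elastin-like cluster stood at 53.7, 23.6 and 61.4 CPM, a knockout ratio of 0.441 (0.222 to 0.794), while in the reticular-like cluster it stood at 33.6, 51.4 and 23.4 CPM, a ratio of 1.53 (0.873 to 2.52). Hoxd9 in the Coch and elastin-like cluster gave 2 UMIs in the knockout against 53 in the young control, a ratio of 0.193 (0.0227 to 0.731). The old control ratio of Hoxa9 was 1.71 (1.10 to 2.58) in the reticular-like cluster, 3.57 (1.96 to 6.11) in the Gpx3 and C3 high-like cluster and 0.994 (0.443 to 2.02) in the Coch and elastin-like cluster. That of Hoxc10 was 2.45 (1.48 to 3.86) in the Gpx3 and C3 high-like cluster and 0.589 (0.325 to 1.0004) in the Coch and elastin-like cluster. Differences between clusters were not tested.

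Marker levels moved with these results. The 10 fibroblast markers, all of them detected in each library, summed to 90619, 49506 and 54894 CPM in fibroblast-like cells, so that other genes took a larger share of the UMIs in the knockout and old control. The dermal papilla list summed to 164, 703 and 266 CPM there, with 9, 7 and 10 of its 10 markers detected and Corin, Sox2 and Rspo2 at 0 in the knockout. Their part in the Hox ratios was not tested. When each library was clustered alone, the old control gave 834 fibroblast-like cells, and its Hoxc8 ratio became 1.29 (1.15 to 1.44), its Hoxc9 ratio 1.15, its Hoxc10 ratio 1.05 and its Hoxa9 ratio 1.31 (0.968 to 1.74).

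In cells thinned to 1500 UMIs each, Hoxc8 was seen in 15.0%, 26.4% and 22.5% of fibroblast-like cells, leaving out 34, 0 and 3 shallower cells, against 1.09%, 0% and 0.697% of lymphoid-like cells, leaving out 85, 0 and 9. Without thinning the shares were 42.3%, 58.3% and 57.4% against 2.36%, 1.32% and 1.35%. The 0 of 76 lymphoid-like cells of the knockout has an upper exact bound of 4.74%. Thinned or not, the young control had the lowest share of fibroblast-like cells with Hoxc8.

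Fibroblast subsets of the young control, clustered alone, differed in total Hox level and in single genes. The reticular-like subset of 1055 cells summed to 422 CPM, the papillary-like subset of 82 cells to 425 CPM, the Gpx3 and C3 high-like subset of 639 cells to 362 CPM, the Coch and elastin-like subset of 348 cells to 495 CPM, and an unnamed subset of 268 cells to 263 CPM. Hoxc8 stood at 124, 125, 97.8, 122 and 80.5 CPM in the same order. Hoxd9 stood at 9.05, 7.45, 6.23, 23.7 and 6.09 CPM and Hoxd8 at 33.2, 41.0, 39.1, 57.0 and 16.4 CPM, so both HoxD genes were highest in the Coch and elastin-like subset. Hoxa9 ran from 4.21 CPM in the unnamed subset to 19.7 CPM in the Gpx3 and C3 high-like subset. Cells of 1 library are not replicates, and these levels are descriptions.

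**Figure D4:**
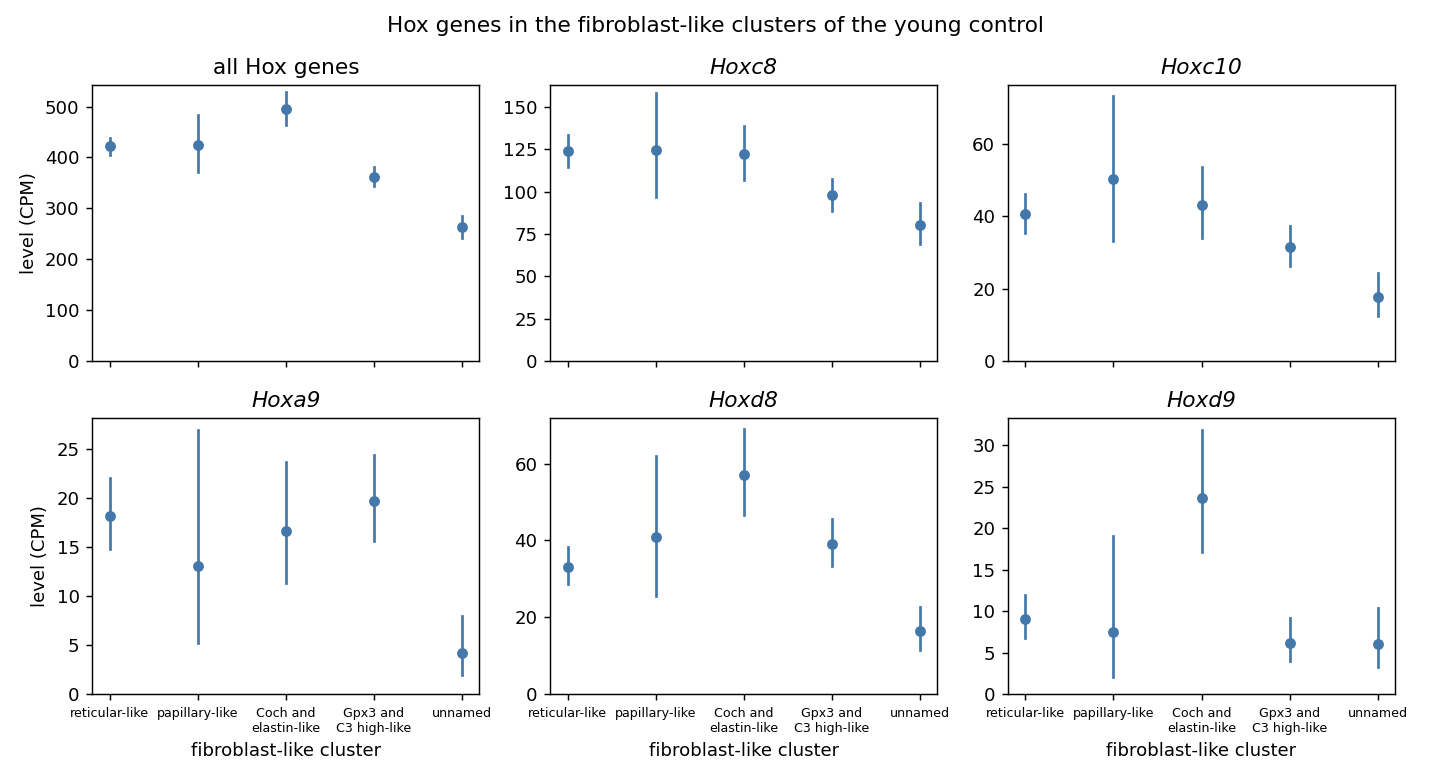
Level in CPM (vertical axes) of all Hox genes summed and of Hoxc8, Hoxc10, Hoxa9, Hoxd8 and Hoxd9 in 5 fibroblast subsets of the young control library clustered alone, with exact 95% counting intervals. The Coch and elastin-like subset is highest for Hoxd9 at 23.7 CPM, and the unnamed subset is lowest for the sum at 263 CPM.

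Dermal papilla or sheath-like cells shared the HoxC-led pattern of fibroblast-like cells at higher levels of Hoxc6, Hoxc4 and Hoxa5. Hoxc8 stood at 166, 198 and 142 CPM, Hoxc6 at 153, 195 and 125 CPM and Hoxc4 at 32.4, 61.5 and 43.8 CPM. For knockout over young control 43.0% of all features had an interval excluding 1 (2273 higher, 2058 lower), and of 17 Hox features 6 were higher and 2 lower. For old over young control it was 37.1% (2001 higher, 1877 lower), and of 17 Hox features 1 was higher and 6 lower. The old control ratios were 0.854 (0.762 to 0.957) for Hoxc8, 0.821 (0.728 to 0.926) for Hoxc6, 0.659 (0.540 to 0.803) for Hoxc9, 0.720 (0.569 to 0.910) for Hoxc10 and 0.466 (0.287 to 0.744) for Hoxa9, and 1.35 (1.07 to 1.72) for Hoxc4. These old control ratios were below 1 where the fibroblast-like ones were above it, with Hoxc4 as the exception. The libraries were not matched in depth here, with medians of 3722.5, 5152.5 and 1891 UMIs per cell. The most Hox UMIs in 1 cell were 96, 71 and 61, at medians of 2, 3 and 1. The intervals do not cover uneven depth between cells, and its part in these ratios was not tested.

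By the size rule 10.5% of all features differed in the knockout, as did 5.89% in the old control, and 1 of 17 Hox features in each, Hoxc13. Hoxc13 gave 36, 0 and 14 UMIs, or 10.1, 0 and 3.18 CPM, and was at least 6.42-fold lower in the knockout against a floor of 3 counts and 0.314 (0.156 to 0.596) of the young control in the old control. The keratinocyte marker list summed to 1474, 217 and 4056 CPM in this class, with 12, 11 and 12 of 12 markers detected and Trp63 at 0 in the knockout. Its part in the Hoxc13 counts and in the other Hox ratios of this class was not tested.

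The knockout value of this class came mostly from a cluster that no other library held. That cluster had 50 cells with a median of 30537.5 UMIs and a summed Hox level of 799 CPM, while the cluster shared by all libraries held 70 knockout cells at 529 CPM against 639 CPM in the young control. In the shared cluster the knockout ratio of Hoxc8 was 0.610 (0.398 to 0.896), where the whole class gave 1.19 (1.04 to 1.36). The direction for Hoxc8 in the knockout thus turned with the cluster. Hoxc4 was higher in both, by 1.90 (1.46 to 2.48) in the class and 2.09 (1.19 to 3.45) in the shared cluster. Hoxc13 gave 0 knockout UMIs against 36 in the shared cluster. The upper bound of its ratio there was 1.44, so that interval included 1.

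In keratinocyte-like cells the highest Hox level was that of Hoxa7, a trunk gene of the HoxA cluster, and Hoxc13, known for hair follicle differentiation, was higher than in fibroblast-like cells in each of the 3 libraries. Hoxa7 stood at 94.9, 79.8 and 79.1 CPM, with ratios of 0.841 (0.728 to 0.967) and 0.833 (0.778 to 0.892). Hoxc8 stood at 38.8, 67.6 and 39.1 CPM, a ratio of 1.74 (1.48 to 2.04) for the knockout against 1.01 (0.911 to 1.11) for the old control. Hoxc13 stood at 27.8, 9.50 and 26.1 CPM, a ratio of 0.342 (0.220 to 0.508) for the knockout against 0.938 (0.830 to 1.06) for the old control. The knockout library was the highest of the 3 for Hoxc8 and the lowest for Hoxc13.

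Hoxa5 stood at 35.1, 28.9 and 27.4 CPM, and Hoxb2, Hoxb3, Hoxb4, Hoxb6, Hoxb7, Hoxb8 and Hoxb9 lay between 7.22 and 22.4 CPM in the 3 libraries. Hoxd8 stood at 13.96, 9.50 and 8.02 CPM and was 0.574 (0.464 to 0.706) of the young control in the old control. By the size rule 9.4% of all features differed in the knockout, as did 2.78% in the old control, and 1 of 15 Hox features (Hoxc13, lower) and 0 of 16. The interval excluded 1 for 53.7% of all features in the knockout (1916 higher, 3355 lower), with 4 of 15 Hox features higher and 5 lower. In the old control it did so for 63.1% (1812 higher, 4410 lower), with 2 of 16 Hox features higher and 5 lower. The Hox share was thus close to that of all features in the knockout and below it in the old control. In cells thinned to 1500 UMIs Hoxa7 was seen in 12.8%, 14.5% and 10.9% of keratinocyte-like cells, leaving out 54, 20 and 456, against 1.54%, 0% and 0% of lymphoid-like cells, and without thinning in 50.2%, 42.3% and 31.4%, at median depths of 8170.5, 6616.5 and 3180.5 UMIs.

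Hoxc13 was concentrated in 1 keratinocyte-like cluster, led by Tgm5, Il31ra, Wfdc3, Krt24 and Lhx2, a transcription factor of hair follicle stem cells. The cluster was singled out after its values were seen, and held 519, 33 and 412 cells. With 17.4%, 17.2% and 25.4% of the UMIs of the class it held 88.5%, 60.0% and 84.9% of its Hoxc13 UMIs and 84.6%, 56.0% and 66.4% of its Hoxd8 UMIs. Its summed Hox level was 713, 644 and 554 CPM, against 259 to 343 CPM in the other 5 clusters of the young control. Within it Hoxc13 stood at 141, 33.2 and 87.1 CPM, with ratios of 0.235 (0.131 to 0.390) and 0.616 (0.539 to 0.702). Hoxd8 stood at 68.0, 31.0 and 21.0 CPM, with ratios of 0.456 (0.247 to 0.774) and 0.308 (0.238 to 0.395), and Hoxb9 at 48.5, 24.4 and 17.7 CPM, with ratios of 0.502 (0.248 to 0.912) and 0.365 (0.274 to 0.479). Inside this cluster all 3 genes were lower in both other libraries than in the young control.

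Hoxc8 in that cluster stood at 79.2, 135 and 80.9 CPM, a knockout ratio of 1.71 (1.28 to 2.23), and in the cluster led by the cycling genes Cenpf and Mki67 its knockout ratio was 1.69 (1.25 to 2.29). Hoxa7, lower in the knockout over the whole class, was 1.41 (1.03 to 1.89) in the Lhx2 cluster and 1.17 (0.929 to 1.47) in the cycling cluster, so its direction turned within clusters. The knockout keratinocyte-like cells lay mainly in these 2 clusters, with 33 and 66 of its 130 cells.

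**Figure D5:**
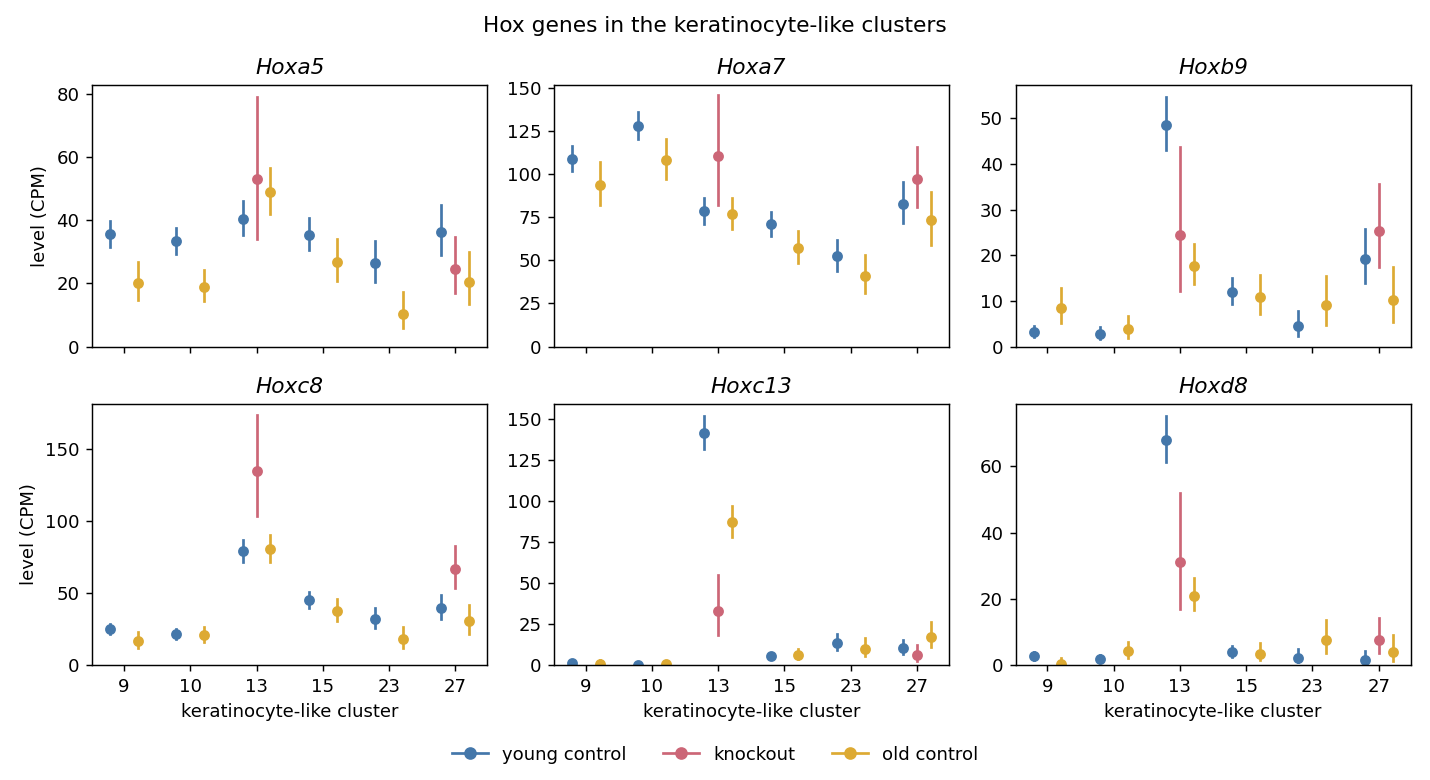
Level in CPM (vertical axes) of Hoxa5, Hoxa7, Hoxb9, Hoxc8, Hoxc13 and Hoxd8 in keratinocyte-like clusters with at least 30 cells in a library, by library, with exact 95% counting intervals. Hoxc13 and Hoxd8 are highest in cluster 13, led by Tgm5 and Lhx2, at 141 and 68.0 CPM in the young control, whereas Hoxa7 is present in every cluster shown.

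Vascular endothelial-like cells had the HoxD and HoxB genes as their main Hox RNA, and more Hox features passed the size rule for the knockout there than in the other 3 classes. Hoxd9 stood at 113, 44.5 and 96.2 CPM, a knockout ratio of 0.393 (0.323 to 0.476). Hoxd8 stood at 107, 50.3 and 79.4 CPM, 0.469 (0.388 to 0.566), and Hoxd10 at 48.5, 23.7 and 38.8 CPM, 0.489 (0.369 to 0.646). The knockout was the lowest library for all 3 HoxD genes, and the old control ratio was 0.849 (0.675 to 1.06) for Hoxd9 and 0.741 (0.578 to 0.943) for Hoxd8.

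Among HoxB genes, Hoxb8 stood at 35.5, 10.8 and 25.6 CPM, Hoxb5 at 31.7, 9.48 and 9.71 CPM and Hoxb3 at 29.8, 11.1 and 22.9 CPM, with knockout ratios of 0.304 (0.205 to 0.444), 0.299 (0.197 to 0.448) and 0.372 (0.249 to 0.547). Hoxb4 stood at 66.0, 42.1 and 44.1 CPM and Hoxb9 at 39.3, 44.7 and 52.1 CPM. Hoxb2 was higher in the knockout, at 14.9, 26.6 and 23.8 CPM, a ratio of 1.79 (1.22 to 2.66). The fibroblast-typical HoxC genes were also higher there: Hoxc8 stood at 10.3, 29.5 and 33.5 CPM, Hoxc6 at 6.87, 19.5 and 18.5 CPM and Hoxc10 at 2.67, 9.21 and 3.53 CPM. Their knockout ratios were 2.86 (1.87 to 4.53), 2.84 (1.68 to 5.05) and 3.45 (1.51 to 9.20).

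By the size rule 13.9% of all features differed in the knockout, and of 18 Hox features 3 were higher (Hoxc6, Hoxc8 and Hoxc10) and 6 lower (Hoxb3, Hoxb5, Hoxb8, Hoxd8, Hoxd9 and Hoxd10). In the old control 8.29% of all features differed, and of 17 Hox features Hoxc8 was higher at 3.26 (1.94 to 5.54) and Hoxb5 lower at 0.307 (0.147 to 0.577). The interval excluded 1 for 51.7% of all features in the knockout (1962 higher, 3406 lower), with 4 of 18 Hox features higher and 9 lower. In the old control it did so for 35.4% (1657 higher, 2039 lower), with 3 of 17 Hox features higher and 3 lower. In the old control Hoxa7 stood at 63.5 CPM against 37.0 CPM, a ratio of 1.72 (1.25 to 2.35). The share of Hox members past the size rule in the knockout was above that of all features, in a class whose cells were not matched between the libraries, as follows.

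Of the 1471 knockout cells of the class 1374 lay in 1 cluster, led by Ifit1, Csf3, Selp and Sele, with 2 young control and 5 old control cells in it. Its summed Hox level was 415 CPM. In the main shared cluster of 567, 80 and 119 cells the sum was 646, 593 and 751 CPM, and the knockout ratios were 0.610 (0.394 to 0.908) for Hoxd9 and 0.599 (0.376 to 0.913) for Hoxd8, with values of 0.845 for Hoxd10, 0.775 for Hoxb8, 0.910 for Hoxb5 and 0.930 for Hoxb3 whose intervals included 1. Hoxc8 gave 2 knockout UMIs against 25 there, a ratio of 0.473 (0.0543 to 1.90), so that its higher level in the class came from the other cluster, where it stood at 32.9 CPM. Hoxb2 was higher in the shared cluster too, by 3.23 (1.71 to 5.90). In the old control Hoxc8 was higher in the shared cluster, by 2.98 (1.28 to 6.43), and in a second cluster of 65 young and 228 old control cells, by 4.77 (1.20 to 41.3).

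Other cell types' markers differed in this class as well. The fibroblast list summed to 2150, 2832 and 2891 CPM, the dermal papilla list to 46.9, 211 and 419 CPM, the pericyte list to 899, 3720 and 1679 CPM and the Schwann list to 275, 1381 and 237 CPM, while the vascular list summed to 6551, 4193 and 3912 CPM. The median mitochondrial share was 5.37%, 10.97% and 6.43%. Their part in the vascular Hox ratios was not tested. In cells thinned to 1500 UMIs Hoxd9 was seen in 15.2%, 6.58% and 11.4% of vascular endothelial-like cells, leaving out 102, 377 and 80, against 0.182%, 0% and 0.348% of lymphoid-like cells, and without thinning in 30.1%, 10.3% and 23.3% against 0.675%, 1.32% and 1.01%, at median depths of 3092, 2064 and 2516.5 UMIs.

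The genes that work with Hox proteins or set their expression were read by the same size rule. The shares of all features past it, against which the counts below are to be read, were 7.72% (knockout) and 4.56% (old control) in fibroblast-like cells, 10.5% and 5.89% in dermal papilla or sheath-like cells, 9.4% and 2.78% in keratinocyte-like cells, and 13.9% and 8.29% in vascular endothelial-like cells. The lists are short, and nothing is read from a count of 0 or 1. In dermal papilla or sheath-like and vascular endothelial-like cells most knockout UMIs came from a cluster with almost no control cells, as given above. The knockout values of those classes below are for the whole class, and no values inside the shared clusters are given for these lists. TALE homeodomain cofactors (Pbx, Meis and Pknox families), which bind DNA together with Hox proteins, gave 0 of 7 tested in fibroblast-like cells in both comparisons, with Meis2 at 71.3, 83.0 and 87.7 CPM and Meis1 at 49.8, 55.6 and 66.1 CPM. In dermal papilla or sheath-like cells 1 of 7 was lower in the knockout, Meis1 at 146 against 58.9 CPM. In vascular endothelial-like cells Meis2 was higher in the knockout, at 8.01 against 22.4 CPM, and Pbx2 lower, at 42.0 against 20.5 CPM, of 5 tested. In the old control Meis1 was higher, at 22.9 against 3.05 CPM, as was Meis2 at 27.4 CPM, of 6 tested. In keratinocyte-like cells 0 of 6 passed in either comparison.

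Polycomb genes, which keep Hox clusters silent, gave, against shares of 7.72% and 4.56% of all features, 0 of 14 (knockout) and 0 of 15 (old control) in fibroblast-like cells, and 0 of 15 in keratinocyte-like cells in both. Of 15 tested in dermal papilla or sheath-like cells, where 10.5% of all features passed, the H3K27 methyltransferase gene Ezh2 was higher in the knockout, at 34.9 against 76.3 CPM, and Cbx8 lower, at 14.9 against 3.16 CPM. Of 14 tested in vascular endothelial-like cells, where 13.9% passed, Cbx7 was lower in the knockout, at 40.1 against 12.1 CPM. No Polycomb gene passed in the old control in these 4 classes.

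Trithorax-group and related genes, which keep Hox genes active, gave 0 of 9 in fibroblast-like cells in both comparisons, where 7.72% and 4.56% of all features passed. The H3K27 demethylase gene Kdm6a was lower in the knockout in cells like dermal papilla or sheath (120 against 56.3 CPM), keratinocyte-like cells (83.9 against 38.8 CPM) and vascular endothelial-like cells (77.8 against 29.5 CPM), each as the one lower gene of 9, beside shares of 10.5%, 9.4% and 13.9% of all features. Kdm6a lies on the X chromosome and escapes its inactivation, and the knockout library differed from the controls in Xist and Ddx3y as given above, so genotype and sex cannot be told apart here. In keratinocyte-like cells Psip1 was higher in the knockout, at 34.8 against 83.6 CPM. Among 7 genes listed as acting upstream, Gdf11, a signal that patterns the trunk-to-tail transition, stood at 40.4, 7.11 and 7.94 CPM in vascular endothelial-like cells and passed as lower in both comparisons, of 3 tested, beside 13.9% and 8.29% of all features.

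Positional genes outside the Hox clusters included the trunk dermis genes Prrx1, at 661, 819 and 720 CPM, Tbx15, at 119, 97.1 and 106 CPM, and En1, at 99.3, 77.9 and 111 CPM in fibroblast-like cells. Of 5 trunk genes tested there Twist2 was higher in the knockout, at 113 against 238 CPM, and 0 passed in the old control, where 7.72% and 4.56% of all features passed. In dermal papilla or sheath-like cells Twist2 was the one of 6 to pass, higher in the knockout and lower in the old control, at 24.8, 61.5 and 9.77 CPM. Of the limb list Shox2 stood at 67.1, 82.0 and 79.5 CPM in fibroblast-like cells and did not pass, while Tbx4 and Tbx5 had 0 and 9 UMIs in the young control. From the list of facial genes Foxd1 was the one gene tested and was higher in both, at 15.3, 54.6 and 52.8 CPM, with ratios of 3.57 and 3.45. In vascular endothelial-like cells, whose marker lists of other cell types differed as given above, 5 trunk, 1 limb and 1 facial gene were tested. Beside 13.9% of all features, 4 of these positional genes passed as higher in the knockout. They were En1 at 3.82 against 19.0 CPM, Prrx1 at 52.6 against 157 CPM, Shox2 at 9.54 against 22.9 CPM and Foxd1 at 1.91 against 10.0 CPM. In the old control Prrx1, at 120 CPM, and Foxd1, at 11.5 CPM, passed there as higher. The numbers tested were the same, and 8.29% of all features passed. Of the non-coding RNAs of the Hox clusters 0 passed in any of the 4 classes, and Hotairm1, transcribed from the HoxA cluster, stood at 48.1, 31.9 and 40.2 CPM in keratinocyte-like cells.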

How the data were processed

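Single cells of dorsal skin were captured with a 3' droplet kit, and the authors deposited UMI counts per gene and barcode as 10x matrices, with Cell Ranger 3.1.0, Seurat 3.1.5 and the build mm10 per the submitters' processing notes. Those deposited counts were used as they stand. A barcode passed with 500 genes or more, 1000 UMIs or more and a mitochondrial share of 15% or less (11722, 9408 and 12074). The automatic threshold of the doublet caller (Scrublet in scanpy 1.11.5) marked 3.30%, 0% and 0.0248%, so the top 8% by score were removed instead. Cells were clustered jointly on 2000 variable genes without Hox genes (30 components, 20 neighbours, Leiden resolution 1; scikit-learn 1.9.0 for components, igraph 0.11.9 and leidenalg 0.10.2 for clusters, numpy 2.4.6 and pandas 2.3.3 for tables). Clusters took a class name from marker lists by thresholds set after the cluster tables were seen. UMIs were summed per library and class and given as CPM, with exact Poisson, binomial or binomial-split intervals (scipy 1.17.1). No p-value was computed. The code was tested on simulated data. Coordinates and exon overlaps come from GENCODE M21 (mm10), and promoters from RefSeq.

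The members, gene lists and comparisons were chosen with earlier results of these data known. Hox genes given with full values are mainly those at 10 CPM or more in a library in a class of at least 100 cells, at most 25. Alternatives were thinning to 1500 UMIs, a stricter cell filter, doublets kept, libraries clustered alone, cells classed one by one, TMM factors and no minimum level.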

Additional observations from a re-analysis of the deposited data

Results flagged for a closer look

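Some genes differed from the young control in opposite directions in different cell classes, with intervals excluding 1 on either side. None of these differences between classes was tested, since each group is 1 library. For the old control, the ratio of Hoxc8 was 0.854 in dermal papilla or sheath-like cells, 1.63 in fibroblast-like cells and 3.26 in vascular endothelial-like cells, and that of Hoxc6 was 0.821, 1.45 and 2.70 in the same order. The old control ratio of Hoxa9 was 0.466 in dermal papilla or sheath-like and 1.83 in fibroblast-like cells. That of Hoxc9 was 0.659 and 1.39, and that of Hoxc10 was 0.720 and 1.27, in the same classes. Hoxa7 in the old control was 0.833 of the young control in keratinocyte-like and 1.72 in vascular endothelial-like cells. Inside the shared and the second vascular endothelial-like cluster the old control intervals of Hoxa7 and Hoxc6 included 1. For the knockout, Hoxd8 was 1.58 in dermal papilla or sheath-like and 0.469 in vascular endothelial-like cells. In both of these classes most knockout UMIs came from a cluster with almost no cells of the controls. Inside the shared clusters the Hoxd8 ratio was below 1 in both classes. It was 0.592 (0.158 to 1.57), from 4 against 90 UMIs, and 0.599 (0.376 to 0.913), so opposite directions were not seen there.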

How the results depend on the processing

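No paired analysis was possible because each group is 1 library, and for the same reason no replicate could be left out. In fibroblast-like cells the counts of Hox genes above the lymphoid-like level (11, 7 and 12) became 3 (knockout) and 6 (old control) with cells thinned to 1500 UMIs, which leaves fewer UMIs. They became 3 in the knockout with the stricter cell filter, which left 34 lymphoid-like cells, and 2 in the young control with cells classed one by one, where 24 lymphoid-like cells remained. By the size rule the count of 0 became 1 (Hoxc11, from 4 and 5 UMIs) in the knockout with no minimum level, and 1 (Hoxc5) in the old control with doublets kept, where the cause was not tested. The summed level of the young control moved from 391 to 406 CPM with thinning and to 380 CPM with doublets kept, that of the knockout from 554 to 497 CPM with TMM factors, and that of the old control from 545 to 480 CPM with libraries clustered alone. In every one of these settings where the 3 sums were computed, the young control was the lowest. A weighting of the clusters to the young control mix, chosen after seeing the data, gave 391, 513 and 525 CPM. TMM factors shifted all log2 ratios by -0.16 (knockout) and -0.08 (old control). Depth limits genes under about 5 CPM, and the lymphoid-like level of the knockout rests on 76 cells.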

Other observations

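Hox levels in classes outside the comparisons are given as values. Melanocyte-like cells, the pigment cells of the follicle, held Hoxc13 at 117, 52.8 and 126 CPM, and the knockout had 12 such cells. In each of the 3 libraries this was above the level of the whole keratinocyte-like class. Against the Lhx2 keratinocyte-like cluster it was lower in the young control and higher in the old control. Lymphatic endothelial-like cells held Hoxd9 at 176, 146 and 124 CPM, Hoxd8 at 151, 140 and 104 CPM and Hoxd10 at 71.0, 63.2 and 39.9 CPM. Pericyte or smooth muscle-like cells held Hoxc8 at 84.3, 220 and 90.9 CPM. Of these, a cluster led by smooth muscle genes with 62 young control and 543 knockout cells stood at 161 and 269 CPM, and the other at 49.2, 41.6 and 77.0 CPM. Sebocyte-like cells held Hoxa7 at 64.9, 30.8 and 80.2 CPM, and Schwann-like cells had the lowest summed level of the skin-resident non-immune classes listed here, at 123, 175 and 215 CPM.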
